A study of Mus musculus with 28 samples.

Results

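The 12 muscle libraries taken after 40 d of daily injections, 6 from mice given acetylsalicylate (aspirin) together with trimetazidine and 6 from mice given the solvent alone, were compared gene by gene. They are 12 of the 28 libraries of the series, whose remainder are 12 livers at the same time and 4 libraries at 24 h. Of 54189 genes listed for muscle, the 11708 with at least 1 FPKM (fragments per kilobase of gene, scaled by a size factor of the library) in at least 6 of the 12 libraries were tested. All mice, vehicle and combination alike, were male Lepob/Lepob C57BL/6J animals, which make no working leptin and become obese and insulin resistant. From 4 weeks of age 30 of them ate the AMLN diet for 20 weeks, with 40% of calories from fat (18.5% from trans-fat), 20% from fructose, and 2% cholesterol by weight, and this diet went on during treatment. The combination was injected into the abdomen at 3.0 mg/kg/day of acetylsalicylate and 5.0 mg/kg/day of trimetazidine, and the vehicle group got an equal volume of solvent. No group lacks the ob mutation or the diet, and the sources used here do not name the muscle that was taken. By the numbers in their labels, the combination mice are 4_5, 5_1, 5_2, 5_3, 5_4 and 5_5, and the vehicle mice 2_1, 2_3, 2_4, 2_5, 3_2 and 6_1. The groups have no first digit in common, so whatever goes with it cannot be told apart from the treatment.

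Acetylsalicylate acetylates the cyclooxygenases, the enzymes that start prostaglandin synthesis, and its product salicylate can activate AMP-activated protein kinase, the energy sensor of muscle. Trimetazidine is an anti-anginal drug described as an inhibitor of mitochondrial thiolase activity, which ends each round of fatty acid oxidation. Skeletal muscle meets its energy demand by switching between fatty acids and glucose, and slow and fast fibres differ in how much of each they burn.

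The libraries held 16.1 to 19.9 M reads on genes. The combination libraries had 18.0 ± 1.31 M and the vehicle libraries 17.6 ± 1.29 M (SD, n = 6 each, two-sided exact permutation test, p = 0.641). The skeletal muscle markers were abundant: Acta1, skeletal actin, stood at 21640 ± 5689 FPKM in vehicle and 20402 ± 3425 in combination muscle, Ckm, muscle creatine kinase, at 4196 ± 1020.0 and 3965 ± 422, and none of 8 heart markers reached the level for testing. In a principal component analysis, combination 5_5 lay at 45.3 on the first component (27.5% of the variance) while the other 11 lay between -16.1 and 3.3. Vehicle 6_1 lay at -32.4 and combination 5_2 at -20.1 on the second component (23.5%), and the other 10 between -9.5 and 16.4. Counts and medians of the leading lists are therefore also given without 5_5 and without 6_1. In whole tissue, fewer cells of a type and less RNA per cell cannot be told apart.

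No gene passed an adjusted p of 0.05 (limma's moderated test on log2(FPKM + 1), Benjamini-Hochberg over 11708 genes, 0.0% called). At an unadjusted p under 0.05, limma gave 451 genes (3.85%), 220 higher (1.88%) and 231 lower (1.97%) in the combination group. A limma voom fit to the reads recovered from the FPKM values gave 0 genes after adjustment and 440 before it. For 30 genes (0.256%) the groups did not overlap, with the combination above in 10 (0.0854%) and below in 20 (0.171%). The median log2 fold change over all tested genes was -0.0036, and 51.4% were negative. The median standard error was 0.11, and for 11426 genes (97.6%) the 95% interval of the log2 fold change lay within 1 of 0. Only 7 genes had a fitted log2 change above 1 in size, 4 higher and 3 lower. The values that follow are therefore estimates for genes of which none passed the threshold, and a missed threshold does not show that the groups were alike. The adjusted p was 0.0958 for Gm3362, 0.191 for AC123870.1, 0.778 for the other 9 genes named below with the smallest p (Col6a2, Pcca, Tnfrsf4, mt-Atp8, S100a9, Borcs7, Gm27616, Myog and an unnamed gene model) and 0.999 for the rest.

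**Figure D1:**
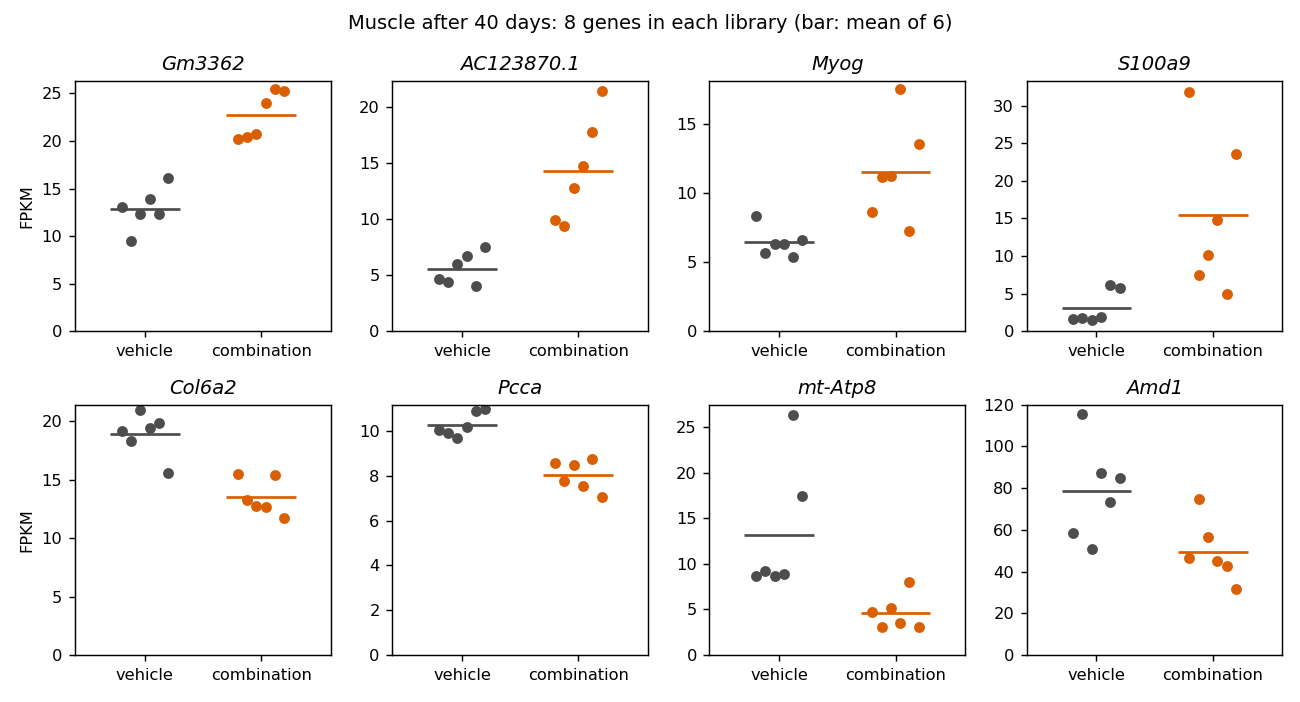
FPKM (vertical axes, from 0) of 8 genes in each of the 12 muscle libraries, vehicle in grey and combination in orange, with a bar at the mean of 6. The groups do not overlap for Gm3362, AC123870.1, Col6a2, Pcca and mt-Atp8, and they overlap for Myog, S100a9 and Amd1.

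The smallest p belonged to Gm3362, a processed pseudogene of 466 bases on chromosome 15 (37943327 to 37943792, minus strand, GRCm38). It is a copy, without introns, of Rpl23a, which encodes a protein of the large ribosomal subunit: 462 of its 466 bases match the Rpl23a transcript. The stretch below, positions 18 to 317 of Gm3362, is shown with the matching stretch of Rpl23a because it carries all 4 differences, in capitals. Both come from GENCODE vM21 transcripts. Counted from the first base of Gm3362, with the Rpl23a base first, they are C142T, G158A, C184A and C194T.
Gm3362: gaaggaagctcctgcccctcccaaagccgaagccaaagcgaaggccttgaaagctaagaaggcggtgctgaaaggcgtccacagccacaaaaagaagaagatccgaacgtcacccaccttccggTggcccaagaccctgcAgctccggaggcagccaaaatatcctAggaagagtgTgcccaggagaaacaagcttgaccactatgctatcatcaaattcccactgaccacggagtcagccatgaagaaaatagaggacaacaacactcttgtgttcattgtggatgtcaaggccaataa
Rpl23a: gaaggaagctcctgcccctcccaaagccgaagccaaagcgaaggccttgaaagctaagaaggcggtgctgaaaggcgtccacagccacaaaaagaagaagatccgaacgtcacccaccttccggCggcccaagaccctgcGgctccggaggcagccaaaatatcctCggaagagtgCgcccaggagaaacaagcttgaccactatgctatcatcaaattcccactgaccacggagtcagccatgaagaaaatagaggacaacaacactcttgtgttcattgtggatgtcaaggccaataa
Gm3362 stood at 13.1, 9.53, 12.3, 13.9, 12.3 and 16.1 FPKM in vehicle 2_1, 2_3, 2_4, 2_5, 3_2 and 6_1, and at 20.2, 20.4, 20.8, 24.0, 25.5 and 25.3 in combination 4_5 and 5_1 to 5_5. Every combination library lay above every vehicle library, and the log2 fold change was 0.78 (SE 0.11, 95% interval 0.54 to 1.02). Rpl23a itself stood at 150 ± 33.3 FPKM in vehicle and 197 ± 25.5 in combination muscle, with groups that overlapped and a log2 fold change of 0.41 (interval 0.11 to 0.72). Its exons are overlapped over 59.7% of their length by Tlcd1 on the other strand, and the sources used here do not say if reads were counted by strand. The other close copies went in no common direction. Gm10335 stood at 12 and 18 FPKM, Gm10132 at 19.5 and 21.6, and Rpl23a-ps3 at 51.0 and 46.7 (vehicle and combination means). Reads that match Rpl23a and its copies equally well may have been divided or dropped, so the level of each is uncertain.

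The second smallest p belonged to AC123870.1, a long noncoding RNA gene on chromosome 15 (102657111 to 102660468, plus strand, GRCm38) that ends 2396 bases from the downstream end of Atp5g2, an ATP synthase subunit gene on the opposite strand. It lay between 4.04 and 7.55 FPKM in vehicle (median 5.35) and between 9.40 and 21.5 in combination muscle (median 13.7), without overlap, at a log2 fold change of 1.20 (SE 0.20, interval 0.77 to 1.62). Tnfrsf4, the OX40 receptor of activated T cells, was also higher in all 6 combination libraries, at 1.24 to 1.92 FPKM against 0.52 to 1.21, on 12 to 55 reads a library. With a vehicle median of 0.67 FPKM, Tnfrsf4 reached the level for testing through the combination libraries. Its rank and separation therefore depend partly on the filter. Borcs7, a subunit of a complex that positions lysosomes, lay at 4.85 to 5.78 FPKM in combination and 6.28 to 7.23 in vehicle muscle, a log2 fold change of -0.27 (interval -0.41 to -0.14). Pcca, the biotin-carrying subunit of propionyl-CoA carboxylase, which clears the propionyl-CoA left by branched-chain amino acids and odd-chain fatty acids, showed the same separation. Its 6 vehicle libraries stood at 9.69 to 11.0 FPKM (median 10.1) and its 6 combination libraries at 7.06 to 8.75 (median 8.12), a log2 fold change of -0.32 (interval -0.47 to -0.18). Gm27616, a miRNA gene model of 63 bases, rested on 0 to 5 reads a library, and an unnamed gene model on chromosome 16 on 21 to 86. Gm27616 reached the level for testing through the vehicle libraries, at 1.05 to 4.47 FPKM against 0.0 to 1.66 in the combination libraries.

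At an unadjusted p under 0.05, where limma gave 1.97% of all tested genes as lower, collagen genes were the group with the most members. Of 33 collagens and collagen-processing enzymes, 28 were tested, 26 had a negative log2 fold change, 10 of them at an unadjusted p under 0.05 by limma, and the median was -0.22. None passed after adjustment. The counts were 26 of 28 negative also without 5_5 and without 6_1, and 25 of 28 without both, with medians of -0.26, -0.31 and -0.35. With any 1 library left out, the median ranged from -0.31 to -0.16. Col6a2, a chain of the collagen VI microfibrils that surround each fibre, stood at 19.1, 18.3, 21.0, 19.4, 19.8 and 15.5 FPKM in vehicle and 15.5, 13.2, 12.8, 12.6, 15.4 and 11.7 in combination muscle, in the order of the mouse numbers. The groups did not overlap, by a small margin, with vehicle 6_1 the lowest of its group, and the log2 fold change was -0.45 (SE 0.09, interval -0.65 to -0.26). Col6a1, its partner chain, named after its values were seen, stood at 38.9 ± 4.31 and 30.1 ± 4.21 FPKM, a log2 fold change of -0.37 (interval -0.60 to -0.13). Col3a1 and Col1a1, which form the fibrils of the interstitial matrix, had log2 fold changes of -0.56 (interval -0.90 to -0.22) and -0.46 (interval -0.75 to -0.17). Col3a1 lay at 35.7 to 60.7 FPKM in vehicle and 24.7 to 44.5 in combination muscle, and Col1a1 at 33.6 to 56.2 and 24.0 to 40.4. All 6 combination libraries lay below the vehicle mean for both, yet the groups overlapped, again with vehicle 6_1 the lowest of its group.

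Markers of the cells that make this matrix gave smaller values. Of 18 markers of fibro-adipogenic progenitors and fibroblasts, all tested, 13 were negative, with a median of -0.15. Of these 13, 5 had an unadjusted p under 0.05 by limma, against 1.97% of all tested genes lower. Lum, the collagen-binding proteoglycan lumican, stood at 29.0 ± 5.48 FPKM in vehicle and 21.9 ± 2.79 in combination muscle, and Mfap5, a microfibril protein, at 15.5 ± 2.07 and 12 ± 2.51. Summed over the list, the markers ranged from 1489.6 to 1950.1 FPKM in vehicle and from 1244 to 2201 in combination libraries, so the ranges overlapped, and their part in the collagen values was not tested. Of 32 matrix glycoprotein and remodelling genes tested, 23 were negative with a median of -0.10, and of 6 tendon markers tested, 3 were negative. The progenitor and fibroblast list shares Col15a1 with the collagen list, and Lum, Dcn and Mfap5 with the matrix glycoprotein list. It therefore does not describe these cells apart from the matrix genes.

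Among genes tied to the drugs' known actions, Ptgs1, the constitutive cyclooxygenase, stood at 2.88 ± 0.473 FPKM in vehicle and 2.90 ± 0.428 in combination muscle, a log2 fold change of 0.01 (interval -0.20 to 0.22). Ptgs2, the inducible form, lay between 0.0492 and 0.271 FPKM, under the level for testing. Of 19 prostaglandin and leukotriene genes tested, 8 were negative, with a median of 0.01. At an unadjusted p under 0.05, limma gave 1 of the 19, as lower, against 1.97% of all tested genes. The most negative log2 fold change was that of Pla2g2e, at -0.70, a gene not among those with a mean of at least 5 FPKM. Acaa2, a mitochondrial thiolase but not the only one, stood at 191 ± 57.0 FPKM in vehicle and 144 ± 35.3 in combination muscle. Its log2 fold change was -0.39 (interval -0.81 to 0.02), 5 of 6 combination libraries lay below the vehicle mean, and vehicle 6_1 was the highest of its group at 299.5. Values for Hadhb, of the trifunctional protein, are given with fatty acid oxidation below. Prkaa1 and Prkaa2, the catalytic subunits of AMP-activated protein kinase, had log2 fold changes of -0.02 (interval -0.18 to 0.14) and 0.05 (interval -0.19 to 0.30). Of 16 genes of that kinase and its regulators, 8 were negative and 8 positive.

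Genes of fatty acid oxidation lay slightly lower in the combination group, most of them by less than the spread between libraries. At an unadjusted p under 0.05, limma gave 5 of 32 as lower, against 1.97% of all tested genes. Of the 32, 29 were negative, with a median of -0.20. Without 5_5 it was 29, without 6_1 it was 26, and without both it was 28, with medians of -0.20, -0.13 and -0.12. Acsl1, which activates long-chain fatty acids, stood at 64.2, 67.0, 50.4, 61.0, 74.0 and 67.0 FPKM in vehicle and 60.1, 41.0, 50.9, 43.5, 55.1 and 45.3 in combination muscle. All combination libraries lay below the vehicle mean, the groups overlapped, and the log2 fold change was -0.37 (interval -0.62 to -0.12). Hadh, the short-chain hydroxyacyl-CoA dehydrogenase, had a log2 fold change of -0.34 (interval -0.59 to -0.08), and Slc25a20, the carnitine carrier of the inner membrane, one of -0.39 (interval -0.70 to -0.07). Hadha and Hadhb, the subunits of the trifunctional protein, had -0.24 (interval -0.57 to 0.09) and -0.33 (interval -0.66 to 0.00).

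All 28 genes of pyruvate dehydrogenase and the citric acid cycle had a negative log2 fold change, from -0.28 to -0.04 with a median of -0.17, and none reached an unadjusted p under 0.05 by limma. The count was 28 without 5_5, 23 without 6_1 and 22 without both, and the median then shrank to -0.15, -0.10 and -0.07. The smallest p belonged to Pdhb, the beta subunit of the pyruvate dehydrogenase that admits glucose carbon to the cycle, at 74.2 ± 13.6 FPKM in vehicle and 61.1 ± 11.5 in combination muscle, a log2 fold change of -0.28 (interval -0.58 to 0.02). Dlat, its acetyltransferase subunit, had -0.25 and Fh1, fumarate hydratase, -0.24. Vehicle 6_1 was the highest library for all 3 genes, at 99.1 FPKM of Pdhb against 62.7 to 80.0 in the other vehicle libraries. Of 75 nuclear respiratory chain subunits tested, 52 were negative, with a median of -0.07, and this count moved most with single libraries: it was 71 without 5_5, 24 without 6_1 and 47 without both. Ndufb2, a complex I subunit, had the smallest p of these, with a log2 fold change of -0.32 (interval -0.56 to -0.08).

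**Figure D2:**
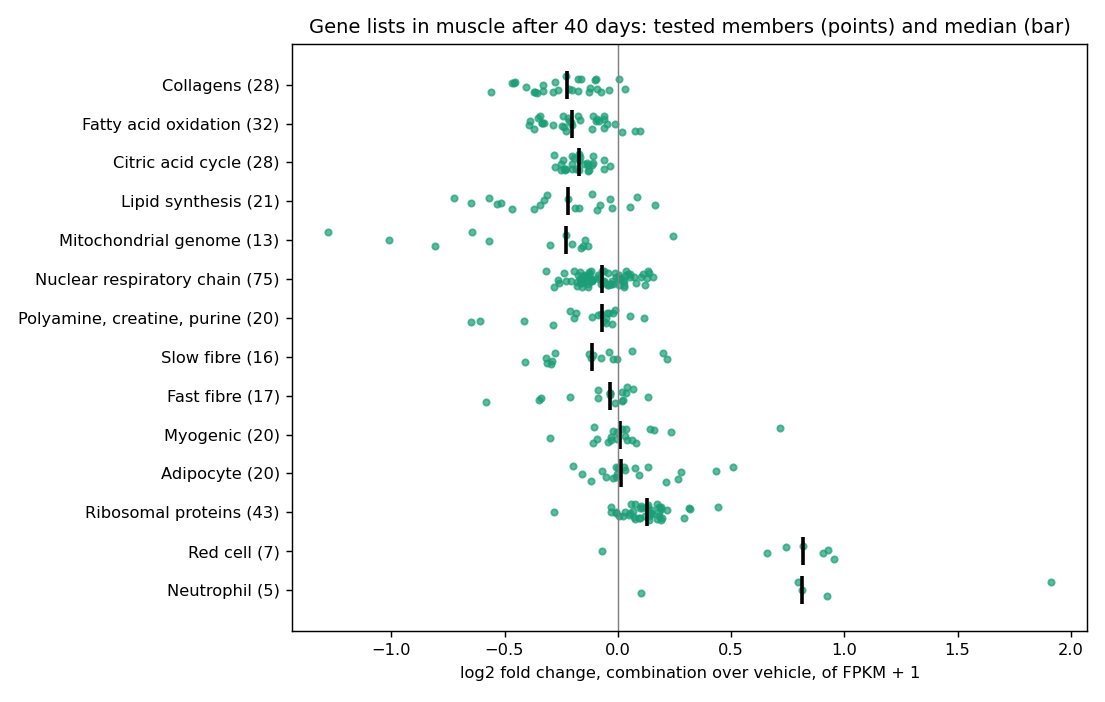
Log2 fold change, combination over vehicle, of FPKM + 1 for each tested member (points) of 14 gene lists, with a black bar at the list's median and the number of members tested in brackets. All 28 citric acid cycle genes lie below 0, 26 of 28 collagen genes lie below 0, and 38 of 43 ribosomal protein genes lie above 0.

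Of the 13 protein genes of the mitochondrial genome, 12 were negative with a median of -0.23, and 2 of them, mt-Atp8 and mt-Co2, had an unadjusted p under 0.05 by limma. The share of all tested genes that were lower at that p was 1.97%. Mitochondrial genes took 8.5 ± 1.24% of the reads in vehicle and 7.53 ± 1.42% in combination muscle (n = 6 each, two-sided exact permutation test, p = 0.247), with the lowest share, 5.10%, in combination 5_5. The 13 genes fell into distinct ranges of level. The 7 without a near-identical copy among the annotated genes stood between 3291 and 23424 FPKM in vehicle muscle, and their log2 fold changes lay between -0.30 and -0.13. The 5 with a copy of at least 99% identity over at least 95% of the gene, mt-Co2, mt-Co3, mt-Atp6, mt-Nd4l and mt-Nd3, stood between 79.9 and 445 FPKM, with log2 fold changes from -1.01 to 0.24. The sources used here do not say how reads that match several places were counted, so the levels of these 5 are uncertain. mt-Co2, subunit II of cytochrome oxidase, stood at 541, 243, 238, 417, 560 and 673 FPKM in vehicle and 232, 185, 309, 144, 240 and 158 in combination muscle, a log2 fold change of -1.01 (interval -1.61 to -0.41). Its copy Gm28661, identical over 681 bases, stood at 212 ± 61.7 and 143 ± 30.9 FPKM. Adding the reads of both gave 437 ± 133 RPM (reads per M of the scaled library) in vehicle (271 to 585) and 245 ± 48.5 in combination muscle (190 to 323), so the combined ranges overlapped too.

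mt-Atp8, a small subunit of ATP synthase, is the remaining gene. It covers 204 bases of the mitochondrial genome (positions 7766 to 7969, plus strand), and its transcript, from GENCODE vM21, is shown because its end, in capitals, is the 43 bases it shares with the start of mt-Atp6 in another reading frame.
mt-Atp8: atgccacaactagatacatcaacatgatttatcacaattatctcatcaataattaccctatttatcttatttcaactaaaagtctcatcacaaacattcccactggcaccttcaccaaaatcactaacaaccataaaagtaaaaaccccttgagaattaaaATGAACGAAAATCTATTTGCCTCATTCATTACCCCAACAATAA
It stood at 8.69, 9.25, 8.64, 8.84, 26.3 and 17.4 FPKM in vehicle and 4.70, 3.07, 5.17, 3.5, 8 and 3.04 in combination muscle, on 11 to 83 reads a library. The groups did not overlap, and the log2 fold change was -1.28 (SE 0.28, interval -1.88 to -0.67). Its level was 13.2 FPKM in vehicle muscle, far under the 3291 FPKM of the lowest of the 7 genes above. A value this low for a gene of 204 bases, with 43 bases shared with mt-Atp6, rests on few reads, and the effect of gene length and of shared bases on it was not tested. Copies were sought among annotated genes only, so a nuclear copy of mt-Atp8 outside them was not looked for, and its level is uncertain too.

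**Figure D3:**
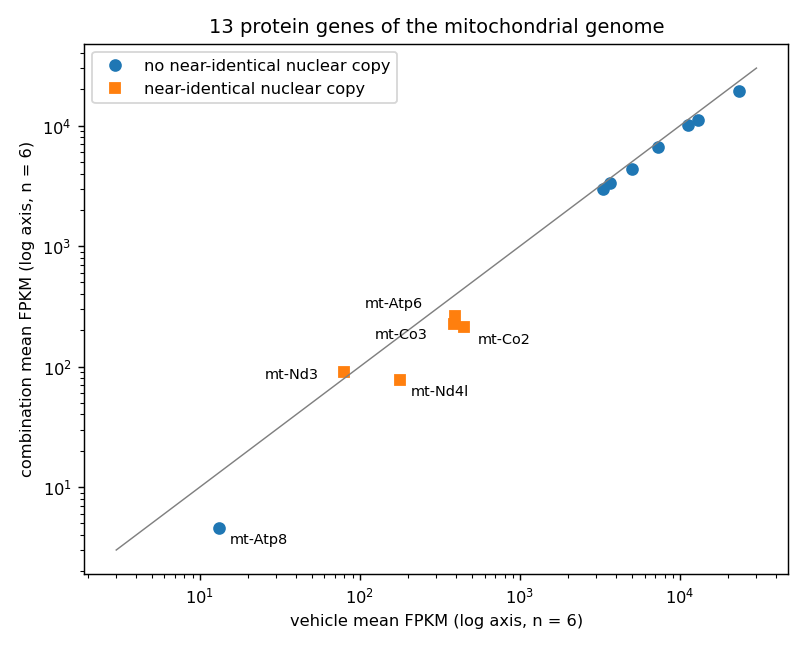
Mean FPKM in combination muscle (vertical) against vehicle muscle (horizontal), n = 6 each, both axes logarithmic, for the 13 protein genes of the mitochondrial genome. Squares mark the 5 that have a near-identical nuclear copy among the annotated genes, and a grey line shows where the means are equal. The 7 genes at 3291 FPKM and above in vehicle muscle lie just under the line, and mt-Atp8, at 13.2 and 4.58 FPKM, lies farthest from it.

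Fatty acid and triglyceride synthesis genes also lay lower: of 21 tested, 18 were negative, with a median of -0.22. At an unadjusted p under 0.05, limma gave 6 of them, against 1.97% of all tested genes lower. The count of negative genes was 18 without 5_5, 18 without 6_1 and 17 without both, with medians of -0.23, -0.41 and -0.27. With any 1 library left out, the median ranged from -0.41 to -0.17. Fasn, fatty acid synthase, stood at 82.3, 95.1, 76.3, 75.3, 81.0 and 27.9 FPKM in vehicle and 40.3, 51.6, 38.4, 24.1, 60.5 and 40.7 in combination muscle, a log2 fold change of -0.72 (interval -1.32 to -0.13). Vehicle 6_1 lay among the combination libraries, and the other 5 vehicle libraries lay above all of them. Scd2, a stearoyl-CoA desaturase, stood at 71.5 to 101 FPKM in those 5 libraries, 36.1 in vehicle 6_1 and 38.7 to 64.4 in the combination group. Me1, the malic enzyme that supplies NADPH for this synthesis, had a log2 fold change of -0.34 (interval -0.59 to -0.10). Of 20 cholesterol synthesis genes tested, 16 were negative with a median of -0.09. Dhcr7 and Nsdhl, late enzymes of the pathway, had log2 fold changes of -0.30 (interval -0.51 to -0.09) and -0.36 (interval -0.63 to -0.10).

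Fat cells within or around the muscle express many of the same lipid genes, and their markers varied widely between libraries. Of 20 adipocyte markers tested, 9 were negative and 11 positive, with a median of 0.01, and the summed markers ranged from 1675 to 3240.2 FPKM in vehicle and from 1312 to 3349 in combination libraries. Adipoq, adiponectin, stood at 71.4 to 269 FPKM in vehicle and 37.9 to 281 in combination muscle, lowest in vehicle 6_1 and combination 5_2 within their groups. Lep, whose ob allele encodes a truncated protein, lay at 49.0 to 232 and 25.2 to 199 FPKM, lowest in the same libraries. The part of fat cells in the lipid synthesis values was not tested. Lepr, the leptin receptor, lay between 0.688 and 1.42 FPKM and was under the level for testing.

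Slow-fibre genes varied between libraries of one group far more than between the group means. Myh7, the slow myosin heavy chain, lay between 15.5 and 157 FPKM in vehicle (median 35.9) and between 8.90 and 133 in combination muscle (median 44.3), a log2 fold change of -0.29 (interval -1.78 to 1.20). Vehicle 3_2 and combination 5_4 were the highest of their groups, and combination 5_3 and 5_5 the lowest of all. Of 16 slow-fibre genes tested, 13 were negative with a median of -0.12, but 8 were without 5_5, 7 without 6_1 and 3 without both, when the median was 0.20. Myh2 and Myh1, myosins of the faster oxidative and intermediate fibres, had log2 fold changes of -0.58 (interval -1.24 to 0.08) and -0.21 (interval -0.56 to 0.14). Myh4, the myosin of the fastest fibres and by far the most abundant of the 4 on this per-length scale, stood at 4945 ± 531 and 5125 ± 1029 FPKM, a log2 fold change of 0.03 (interval -0.31 to 0.38). Of 17 fast-fibre genes tested, 10 were negative with a median of -0.03.

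Myog, the transcription factor myogenin, which drives the differentiation of muscle precursors and responds to loss of nerve input in mature fibres, stood at 8.34, 5.70, 6.32, 6.30, 5.36 and 6.61 FPKM in vehicle and 8.60, 11.2, 11.2, 17.5, 7.24 and 13.6 in combination muscle. Of the combination libraries, 5 lay above every vehicle library and 5_4 lay among them, and the log2 fold change was 0.72 (SE 0.17, interval 0.35 to 1.08). The related factors did not share this value: Myf6 had 0.14 (interval -0.10 to 0.39) and Mef2c, a partner of these factors, -0.30 (interval -0.63 to 0.04). Of 20 satellite cell and myogenic genes tested, 10 were negative and 10 positive, with a median of 0.01. Dok7, which helps cluster acetylcholine receptors at the nerve-muscle junction, had -0.33 (interval -0.61 to -0.06), and of 26 excitation and junction genes tested, 16 were negative with a median of -0.03.

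Enzymes of polyamine turnover had some of the lower values. Amd1, which makes the aminopropyl donor for spermidine and spermine, stood at 58.6, 116, 50.6, 87.2, 73.3 and 84.9 FPKM in vehicle and 46.3, 74.9, 56.6, 45.1, 42.7 and 31.7 in combination muscle. All 6 combination libraries lay below the vehicle mean, 2 of them within the vehicle range, and the log2 fold change was -0.65 (interval -1.12 to -0.18). Smox, spermine oxidase, had -0.61 (interval -1.10 to -0.12), with combination 5_5 lowest of all at 18.9 FPKM against 31.6 to 53.3 in the others of its group. Amd2, a gene closely related to Amd1, had -0.41 (interval -0.76 to -0.07) at 0.770 to 2.89 FPKM. Of 20 polyamine, creatine and purine genes tested, 18 were negative with a median of -0.07, against 13 without 6_1.

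Blood cell transcripts were higher in some combination libraries. S100a9, a subunit of the neutrophil protein calprotectin, stood at 1.59, 1.76, 1.5, 1.84, 6.19 and 5.80 FPKM in vehicle and 31.8, 7.50, 10.1, 14.8, 4.89 and 23.6 in combination muscle, a log2 fold change of 1.91 (SE 0.42, interval 1.01 to 2.82). Combination 5_4 lay under the 2 highest vehicle libraries, and the other 5 lay above all of them. S100a8, its partner, had 0.81 (interval 0.17 to 1.46), with 19.4 FPKM in combination 4_5 against 4.12 to 10.9 in the others of its group. Of 16 neutrophil markers, 5 reached the level for testing, and all 5 were positive, with a median of 0.81, and 0.73 without 5_5. A marker low in vehicle could reach that level through the combination libraries, so this count and median may depend partly on the filter. The median was 1.24 by limma voom on the recovered reads and 1.36 with a mean of at least 5 FPKM, which leaves S100a8 and S100a9. Summed over the 16 markers they ranged from 9.31 to 17.6 FPKM in vehicle and from 15.6 to 74.5 in combination libraries. Among these markers, the granule genes Mpo and Elane stood at 0.343 FPKM at most in every library. Of 7 red cell genes tested, 6 were positive, with a median of 0.82. Hbb-bs, adult beta globin, lay at 231 to 469 FPKM in vehicle and 177 to 1227 in combination muscle (log2 fold change 0.90, interval 0.04 to 1.77), and Alas2, the erythroid enzyme of haem synthesis, at 4.89 to 8.68 and 3.92 to 28.9. Combination 4_5 was lowest in these red cell genes and highest in S100a9. The part of blood left in the muscle in these values was not tested.

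Other immune genes gave small values. Of 26 inflammatory cytokine, chemokine and NF-kB target genes tested, 21 were positive with a median of 0.08, and Tnfaip3, a feedback inhibitor of NF-kB, had 0.27 (interval 0.01 to 0.54). Of 18 antigen presentation genes, 10 were negative with a median of -0.02. The class II genes H2-DMb1, Cd74 and H2-Eb1 had the smallest p there, with log2 fold changes of -0.45, -0.45 and -0.53, all 6 combination libraries lay below the vehicle mean for each, and combination 5_2 was the lowest library for all 3. Of 21 macrophage markers tested, 12 were positive with a median of 0.09, and the summed markers overlapped (430 to 689 and 346 to 1019 FPKM).

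**Figure D4:**
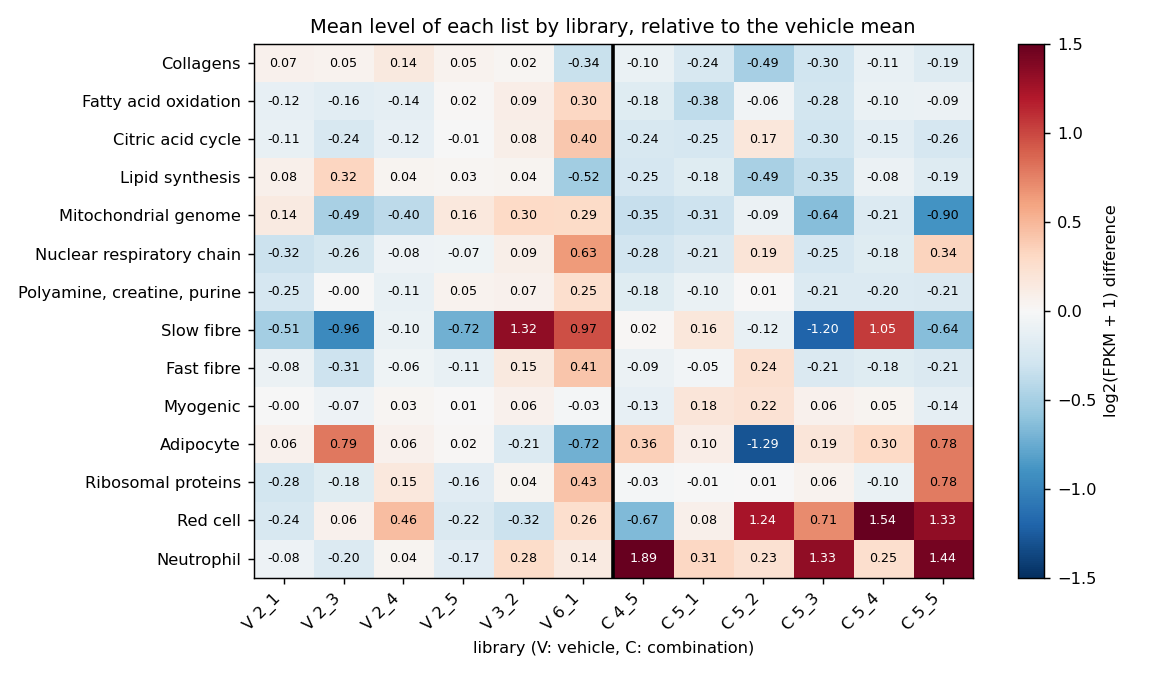
Mean of log2(FPKM + 1) over the tested members of 14 lists (rows) in each muscle library (columns, vehicle left of the line and combination right), as the difference from the vehicle mean, with the value printed and coloured from blue (lower) to red (higher). Ribosomal protein genes stand at 0.78 in combination 5_5 and between -0.10 and 0.06 in the other combination libraries, and the adipocyte list at -1.29 in combination 5_2.

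Regulators of mitochondrial content and of glucose use gave mixed values. Ppargc1a, the coactivator that drives mitochondrial biogenesis after exercise, stood at 5.4 ± 1.62 FPKM in vehicle and 4.31 ± 1.35 in combination muscle, a log2 fold change of -0.28 (interval -0.73 to 0.16), and combination 5_5 was the lowest at 1.81. Its relative Pprc1 lay at 2.58 to 3.26 and 3.24 to 3.69 FPKM, a log2 fold change of 0.21 (interval 0.07 to 0.34). Pdk4, the kinase that blocks pyruvate dehydrogenase in fasting and exercise, spanned 53.8 to 533 FPKM in vehicle and 51.0 to 604 in combination muscle, so its interval was wide (log2 fold change -0.65, -2.08 to 0.79). Of 24 fuel genes that respond to PPARs, fasting or exercise, 20 were negative with a median of -0.10, and 16 without 6_1. Slc2a4, the insulin-responsive glucose transporter, had 0.03 (interval -0.25 to 0.31), and of 28 insulin and glucose uptake genes tested, 16 were negative with a median of -0.03. Fbp2, the muscle fructose bisphosphatase, had 0.43 (interval 0.04 to 0.81), within a list of 31 glycolysis and glycogen genes of which 22 were negative. Of 19 hypoxia genes tested, 4 had an unadjusted p under 0.05 by limma, all of them higher, against 1.88% of all tested genes. Egln3, an oxygen-sensing prolyl hydroxylase, was the largest of those named by the rule, at 14.1 ± 4.88 and 20.8 ± 3.62 FPKM (log2 fold change 0.57, interval 0.15 to 0.99), followed by Ankrd37 at 0.39 and Adm, adrenomedullin, at 0.27. The list's median was nevertheless 0.00.

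The list of cytosolic ribosomal protein genes, which does not hold Rpl23a, leaned the other way, with 38 of 43 positive and a median of 0.13, none of the 43 at an unadjusted p under 0.05 by limma. Without combination 5_5 only 20 of 43 were positive and the median was -0.02, and without vehicle 6_1 42 were positive. Of 31 proteasome subunits, 22 were positive, but 2 without 5_5.

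The effect in muscle was set against that in the livers in 1 limma fit over 24 libraries and the 9436 genes tested in both tissues. The livers carry the same mouse numbers as the muscles, but this fit took the 24 libraries as independent. With the mouse number as a block, the fit gave 3 genes instead of the 1 described here. For 1 gene (0.0106%) the difference between effects passed an adjusted p of 0.05 by limma. Rnase4, a secreted ribonuclease that shares a promoter region and 13.4% of its exonic bases with Ang, had a log2 fold change of -0.14 in muscle (70.5 ± 14.8 FPKM in vehicle, 62.9 ± 5.57 in combination) and 1.12 in liver (331 and 724 FPKM). The difference was -1.26 (SE 0.20, adjusted p = 0.0111). It was not called without 5_3, without 5_4 or without 5_5, at differences of -1.21, -1.26 and -1.23 with adjusted p of 0.0874, 0.0522 and 0.0617 by limma. At an unadjusted p under 0.05 the fit gave 492 genes (5.21%). For the collagens, whose median was -0.22 in muscle, the liver median was 0.06 over 22 genes. The differences for Col6a2 and Col6a1 were -1.03 and -1.04, with an adjusted p of 0.35 for both by limma. Lipid synthesis genes had a median of -0.71 in liver and citric acid cycle genes one of -0.19, beside -0.22 and -0.17 in muscle.

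At 24 h each group had 1 muscle library, so the values stand side by side without a test. Gm3362 read 13.2 FPKM in vehicle and 15.9 in combination muscle, the same order as at 40 d. The order was the opposite of that at 40 d for AC123870.1, which read 5.41 and 2.89 FPKM, Col6a2 at 17.1 and 18.5, Pcca at 10.9 and 15.2, Myog at 4.92 and 3.70, and mt-Atp8 at 8.09 and 28.4. Acaa2, at 134 and 226 FPKM, and Acsl1, at 54.0 and 140, were also in the opposite order, and Amd1, at 108 and 53.4, in the same one. S100a9 read 3.04 and 3.06. The vehicle and combination libraries at 24 h also differed in make-up. All 16 slow-fibre genes and all 20 adipocyte markers were higher in the combination library, and 15 of 17 fast-fibre genes were lower. Mitochondrial genes took 6.94% of the reads in the vehicle and 10.97% in the combination library. With 1 library a group, an effect of treatment cannot be told apart from a difference in the tissue taken. Myh7 read 0.0663 and 0.139 FPKM at 24 h, under the lowest library at 40 d, 8.90. The tables of the 2 times were scaled separately, and the sources used here do not say if the same muscle was taken at both, so a difference between the times cannot be told apart from a difference in the muscle taken.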

How the data were processed

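Muscle RNA (Trizol) went into NEBNext Ultra libraries, per the labels' protocols. The authors deposited FPKM values in 1 table per tissue at 40 d and 1 for 24 h, per the file headers. The submitters' processing notes name the builds GRCm38 and mm10. Aligner, counter and strand setting were not given in the sources used here. All FPKM values were whole multiples of 1 read within 0.05 read, so reads were recovered with the tables' gene lengths. The authors' denominators matched median-of-ratios size factors. Of 53620 genes shared with GENCODE vM21, 97.1% had the same coordinates.

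Genes that reached 1 FPKM in 6 or more of the 12 libraries were tested on log2(FPKM + 1), which understates the change of low genes, by limma 3.58.1 in R 4.3.3 with a trend, two-sided, Benjamini-Hochberg, threshold 0.05, without covariates. The procedure was tested on simulated data. Libraries of a group carry different mouse numbers and were taken as separate mice. Shares and depth were compared by exact permutation over 924 relabellings (smallest p 0.00216). Copies were found with BLAST 2.17.0 at 99% identity and 95% coverage. Figures used matplotlib 3.10.9.

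The named genes are the 10 with the smallest p, the 3 with the smallest p in each list, the first of the difference between tissues, tissue markers and a fixed set of 15 genes around the drugs' targets, fuel use and fibre types. Rpl23a and its copies, Gm28661 and Col6a1 were added. The comparison, the gene lists and this rule were chosen with earlier results of these data known. Alternatives were the pseudocount, the filter, the scaling, a voom fit, a robust variance, each library left out and a mouse block.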

Additional observations from a re-analysis of the deposited data

Results flagged for a closer look

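In groups of 6 libraries, 206 sets of values (named genes and list means, by group) were checked for 1 library standing apart, meaning that its gap to the nearest of the others, divided by the whole range, exceeded Dixon's 95% critical value for 6. Such a gap was found in 20 sets. Chance gives about 1 in 20, and many of the sets share libraries and genes.

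Of the 20, 7 were in vehicle 6_1, the library far out on the second principal component. It was low for Fasn (27.9 FPKM against 75.3 to 95.1 in the other vehicle libraries), Scd2 (36.1), Cyp51 (2.36), the collagen list (-0.34) and the lipid synthesis list (-0.52), and high for Ptges2 (14.5 FPKM) and the branched-chain amino acid list (0.20). List values are mean differences in log2(FPKM + 1) from the vehicle mean.

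Another 5 were in combination 5_5, the library far out on the first component. It was low for Prkaa2 (22.9 FPKM), Ppargc1a (1.81), Slc2a4 (138) and Mtor (3.91), and high for the ribosomal protein list (0.78).

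The remaining 8 were in combination 5_2. It was low for Adipoq (37.9 FPKM), Lep (25.2), Cfd (35.9) and the adipocyte list (-1.29), and high for Fh1 (90.8 FPKM), Ckm (4806), the citric acid cycle list (0.17) and the fast-fibre list (0.24).

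The effect of the combination on Rnase4 differed between tissues, by -1.26 in log2 (muscle minus liver), by the limma test of the difference itself.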

How the results depend on the processing

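The count of genes past the adjusted threshold in muscle, 0 as reported, was 1 with a filter on a mean of at least 5 FPKM (Gm3362), 2 after scaling to equal total FPKM over nuclear genes (Gm3362 and AC123870.1, at adjusted p of 0.0252 and 0.0383), and 0 to 1 with 1 library left out, the 1 being Gm3362 without vehicle 6_1. The smallest adjusted p over 19 alternatives was 0.0252. The count at an unadjusted p under 0.05 was 1083 with no filter, 225 with the mean filter, 343 to 756 with 1 library left out (756 without combination 5_5) and 909 without 6_1 and 5_5 together, a setting chosen after seeing the data.

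The difference between tissues, 1 gene as reported, gave 3 genes with the mouse number as a replicate block, and 0 to 2 with 1 mouse number left out. Muscle and liver libraries carry the same 12 mouse numbers, and the main fit in the report did not use that pairing. Deviations of libraries with the same number correlated above 0.1 in 7 of 12 cases. Of the 12 muscle libraries, 6 correlated best with the liver of their own number. Within muscle no number occurs in both groups. No paired analysis of muscle was possible because no mouse number is shared between vehicle and combination.

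Of 81 genes named and tested, 71 kept the sign of their log2 fold change under every alternative. The other 10 had 95% intervals that spanned 0. With 1 library left out, Ptgs1 ranged from -0.0618 to 0.0495, Prkaa1 from -0.0677 to 0.0119, Myh7 from -0.68 to 0.0867, Myh4 from -0.0418 to 0.0896, Slc2a4 from -0.0195 to 0.13, Adipoq from -0.0537 to 0.52, Lep from -0.39 to 0.31, Ckm from -0.15 to 0.0519 and Acta1 from -0.16 to 0.0451. Without 6_1 and 5_5 together, Ptgs1 stood at -0.0286, Ppargc1a at 0.00353, Myh7 at 0.25, Adipoq at -0.23, Ckm at 0.0693 and Acta1 at 0.0556. The cause was not tested.

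Depth limits genes of few reads, such as Gm27616, Tnfrsf4 and mt-Atp8. Intervals cover the spread between these libraries only.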

Other observations

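By gene class, the share of genes at an unadjusted p under 0.05 by limma was 3.21% for protein-coding genes (337 of 10488), 8.61% for processed pseudogenes (42 of 488), 7.74% for long intergenic noncoding RNAs (12 of 155, 11 of them higher in the combination group), 16% for snoRNAs (4 of 25) and 25% for miRNA gene models (7 of 28). The share over all tested genes was 3.85%. None passed after adjustment. Short gene models take few reads, and a gene near the filter can reach the level for testing through the group where it is high, as Gm27616 did. The part of few reads and of the filter in these shares was not tested.

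Liver transcripts were present in some muscles. Alb, serum albumin, stood at 1.94 to 98.0 FPKM in vehicle and 1.57 to 14.2 in combination libraries, and 2 of 14 hepatocyte markers reached the level for testing.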
